A study of Mus musculus with 12 samples.

Results

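Tumour necrosis factor (TNF) is an inflammatory cytokine made mainly by macrophages, and its receptors switch on the NF-kB family of transcription factors. NF-kB in turn raises the transcripts of its own inhibitors, *Nfkbia* and *Tnfaip3*, which end the signal, and those of adhesion molecules and survival genes. A slower, noncanonical branch, used by the TWEAK receptor and the lymphotoxin receptor among others, acts through the products of *Nfkb2* and *Relb*. In liver, TNF signalling is known for its part in the acute phase response, regeneration and the death of injured hepatocytes.

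The 10 genes described here were chosen by name: the cytokine *Tnf*, the receptors *Tnfrsf1a*, *Tnfrsf1b* and *Tnfrsf12a*, the inhibitors *Tnfaip3* and *Nfkbia*, the NF-kB subunits *Nfkb2* and *Relb*, and the targets *Birc3* and *Icam1*. All 10 were among the 25676 genes of the deposited table. Whole liver RNA of 12 mice was sequenced, in 4 groups of 3: WT males, WT females, *Yap1* knockout (KO) males and KO females. The mice were on the C57BL/6 background and aged 3-4 months. The KO mice carried Cre recombinase driven by *Foxa3*, a gene of the embryonic foregut endoderm from which hepatocytes and bile duct cells arise, so immune, endothelial and stromal cells lie outside its expected reach. YAP1 is a transcriptional co-activator. The labels do not say whether WT mice carried Cre or a floxed allele. Each library bears its own code, and the codes of WT female replicate 3 and KO female replicate 1 have lower numbers than the rest. This leaves too few samples for values within that pair. These 2 are called the early animals here, though the labels do not say what the codes stand for. The library identifier of WT male replicate 2 also stands apart from the others, and its meaning is not given either.

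Values are TPM, the share of a library's transcripts that a gene holds, corrected for gene length and scaled to the same sum in each library. Differences are KO minus WT on the log2(TPM + 1) scale, with a standard error (SE), and adjusted p-values come from limma with Benjamini-Hochberg adjustment over the 12278 genes with a mean of at least 0.5 TPM. *Yap1* itself lay between 23.0 and 34.9 TPM in the 6 WT livers and between 0.994 and 3.11 TPM in the 6 KO livers (difference -3.36, exact permutation p = 0.005, the smallest this design can give). Where whole reads could be read from the steps in the values, the genes concerned held 11596928 to 16765127 reads per library. The median of all tested genes was itself 0.35 higher in KO, so every result was also computed after rescaling the libraries by median-of-ratios size factors, which moved that median to -0.04. These are called rescaled values. The hepatocyte markers *Alb*, *Apoa1* and 4 others, which define the labelled tissue, summed to 59094 TPM or more in every library.

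Of the 10 genes, 9 were tested and all 9 rose in KO liver, against 50.1% of all tested genes that rose. After rescaling 7 of the 9 rose, against 20.9% of all tested genes, and the exceptions were *Tnfrsf1b* and *Nfkbia*. The median difference of the 9 was 1.97, beside 0.35 over all tested genes, and 1.57 beside -0.04 after rescaling. In 8 of the 9, every KO liver lay above every WT liver, as in 28.7% of all tested genes. The 10 genes were chosen with earlier results of these data known, so these counts describe them and are no test against all genes. *Tnf* was below the expression filter. In bulk tissue, more cells of a type and more RNA per cell cannot be told apart, and this holds for each result here.

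**Figure D1:**
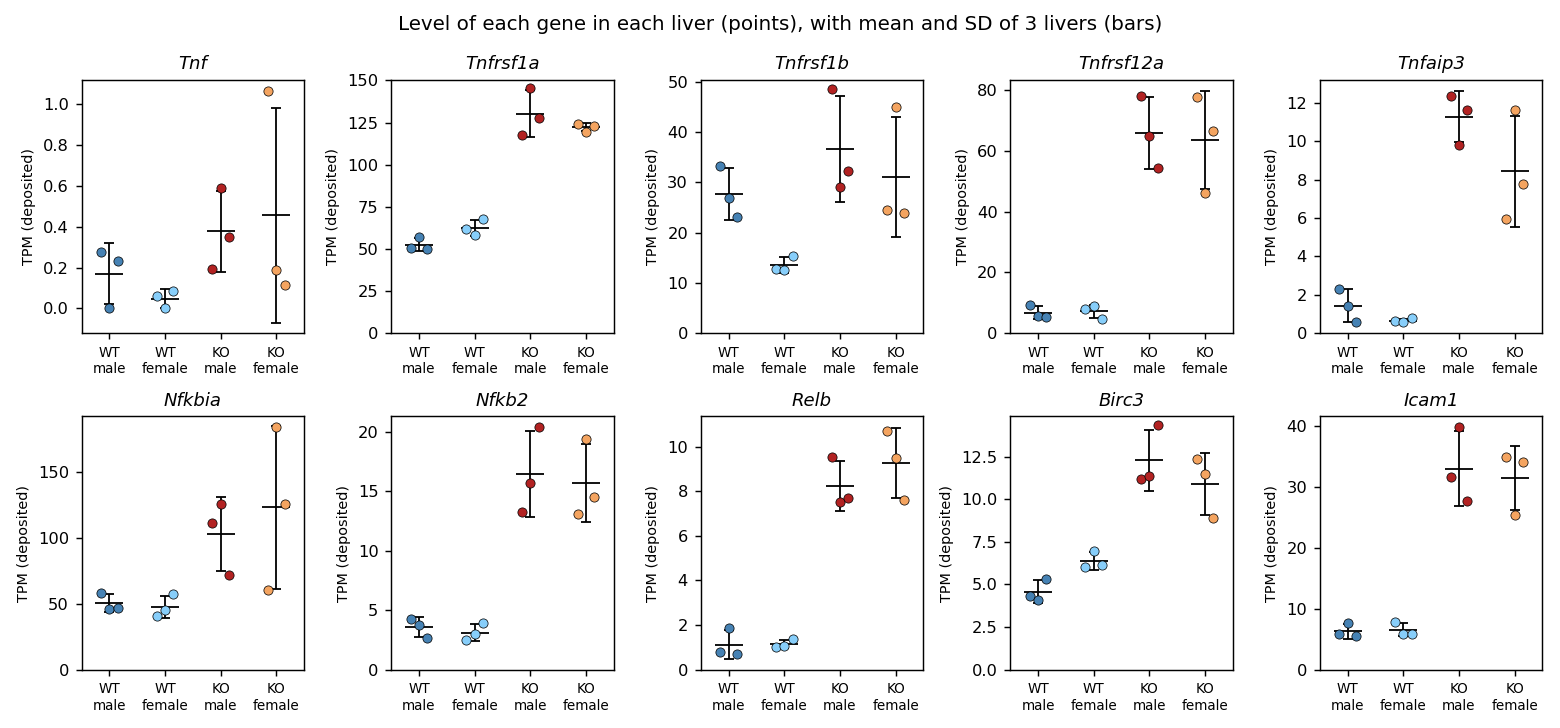
TPM of each of the 10 genes (vertical axis, own scale per panel, from 0 except for *Tnf*) in each liver, grouped by genotype and sex; points are livers, bars the mean and SD of 3 livers. KO livers lie above all WT livers for 8 genes, while *Tnf* and *Tnfrsf1b* overlap between genotypes.

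*Tnf*, the ligand, was low, at 1.06 TPM or less in every liver (chromosome 17, 35199381 to 35202007, minus strand, GRCm38). The WT males had 0.278, 0 and 0.233 TPM, the WT females 0.0592, 0 and 0.0867 TPM, the KO males 0.195, 0.588 and 0.350 TPM, and the KO females 1.06, 0.190 and 0.114 TPM. These values rest on 0 to 20 recovered reads per library. One KO female stood highest, the 2 livers at 0 were both WT, and the genotypes overlapped. A count of 0 allowed up to 0.149 TPM in the WT male and up to 0.173 TPM in the WT female, for counting error only. The mean was 0.110 ± 0.119 TPM in WT and 0.416 ± 0.358 TPM in KO (SD, n = 6 each). When genes of all levels were fitted with limma, the difference of *Tnf* was 0.32 (SE 0.141) with an unadjusted p of 0.0407 and an adjusted p of 0.0868, and 0.23 with 0.200 after rescaling. In the first of these fits 41.6% of all genes passed. The authors' deposited table gives *Tnf* a log2 fold change of 1.67 with an FDR of 0.19. The difference in *Tnf* therefore did not pass the test.

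The receptors were far more abundant than the ligand. *Tnfrsf1a* encodes TNFR1, the main TNF receptor of most cells, which carries a death domain (chromosome 6, 125349362 to 125362484, plus strand). Its levels were 50.4, 56.9 and 49.9 TPM in WT males, 61.6, 57.9 and 67.7 TPM in WT females, 118, 146 and 128 TPM in KO males and 124, 119 and 123 TPM in KO females. Every KO liver was above every WT liver, and 1 KO male was above all others. Mean levels were 57.4 ± 6.77 TPM in WT and 126 ± 10.1 TPM in KO (SD, n = 6 each), and the limma difference was 1.13 (SE 0.0975, adjusted p = 8.77e-07). It was 1.30 within males and 0.96 within females. After rescaling it was 0.67 (limma adjusted p = 0.000215). The rescaled difference was 0.72 for males alone and 0.61 for females alone.

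*Tnfrsf1b* encodes TNFR2, which lacks a death domain and is made mostly by immune and endothelial cells (chromosome 4, 145213463 to 145246870, minus strand). WT males had 33.2, 26.9 and 23.0 TPM, WT females 12.8, 12.5 and 15.3 TPM, KO males 48.6, 29.0 and 32.2 TPM, and KO females 24.6, 45.0 and 23.9 TPM. The WT females were lowest, all 3 below every other liver, and the males of the 2 genotypes overlapped. Over both sexes, *Tnfrsf1b* was 20.6 ± 8.48 TPM in WT and 33.9 ± 10.5 TPM in KO (SD, n = 6 each), a limma difference of 0.73 (SE 0.199, adjusted p = 0.00717). After rescaling the difference was 0.28 with a limma adjusted p of 0.372. In females *Tnfrsf1b* was 1.09 higher in KO (limma adjusted p = 0.00509), and 0.75 higher after rescaling (adjusted p = 0.0740). In males the difference was 0.37 (limma adjusted p = 0.236) and -0.19 after rescaling (adjusted p = 0.675). The difference between these effects, male minus female, was -0.72 with a limma adjusted p of 0.595. The authors' deposited table gives *Tnfrsf1b* a log2 fold change of -0.14 with an FDR of 0.73.

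*Tnfrsf12a* encodes Fn14, the receptor for the cytokine TWEAK, and is low in healthy adult liver (chromosome 17, 23675445 to 23677468, minus strand). It was measured at 9.20, 5.68 and 5.19 TPM in WT males, 7.95, 8.89 and 4.69 TPM in WT females, 78.1, 65.1 and 54.4 TPM in KO males, and 78.0, 46.1 and 66.7 TPM in KO females. The lowest KO liver was far above the highest WT liver, and neither sex stood apart within a genotype. The mean was 6.93 ± 1.98 TPM in WT and 64.7 ± 12.7 TPM in KO (SD, n = 6 each). With a limma difference of 3.07 (SE 0.182, adjusted p = 2.51e-08), *Tnfrsf12a* had the largest value of the 9 tested genes on this scale, and the rescaled difference was 2.63 (adjusted p = 2.51e-07). As a ratio of mean TPM, KO to WT, it was 9.34, just below the 9.50 of *Tnfaip3*. The level of *Tnfrsf12a* relative to that of *Tnfrsf1a* in the same liver went from 0.0692 to 0.182 in WT to 0.386 to 0.663 in KO.

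The 2 inhibitors differed in size and in spread. *Tnfaip3* encodes A20, a ubiquitin-editing enzyme that shuts off signalling below TNFR1 (chromosome 10, 19000910 to 19015657, minus strand). Its values were 2.31, 1.40 and 0.564 TPM in WT males, 0.615, 0.560 and 0.770 TPM in WT females, 12.4, 9.80 and 11.6 TPM in KO males, and 5.93, 11.6 and 7.76 TPM in KO females. All KO livers were above all WT livers, and 2 of the 3 KO females were the lowest of the KO livers. *Tnfaip3* averaged 1.04 ± 0.702 TPM in WT and 9.86 ± 2.55 TPM in KO (SD, n = 6 each), a limma difference of 2.44 (SE 0.183, adjusted p = 2.23e-07), or 2.10 after rescaling (adjusted p = 5.31e-06).

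*Nfkbia* encodes IkB-alpha, which holds NF-kB in the cytoplasm and is resynthesised when NF-kB is active (chromosome 12, 55489410 to 55492647, minus strand). Levels were 58.7, 46.2 and 47.1 TPM in WT males, 40.8, 45.5 and 57.2 TPM in WT females, 112, 126 and 71.9 TPM in KO males, and 60.6, 184 and 126 TPM in KO females. The KO livers were widely spread, and the lowest of them, a female, was only just above the highest WT liver. The mean of *Nfkbia* was 49.3 ± 7.09 TPM in WT and 113 ± 44.3 TPM in KO (SD, n = 6 each). Its limma difference was 1.10 (SE 0.229, adjusted p = 0.00123), and 0.64 after rescaling, with an adjusted p of 0.0742. In males it was 0.98 (limma adjusted p = 0.0280), a call that ended when WT male replicate 2 (adjusted p = 0.0752), WT male replicate 3 (0.0614), KO male replicate 1 (0.0751) or KO male replicate 2 (0.0937) was left out, and after rescaling (difference 0.41, adjusted p = 0.472). It also ended without the expression filter (limma adjusted p = 0.0531) and when libraries were rescaled without their 20 most abundant genes (0.0512). In females it was 1.22 (limma adjusted p = 0.0121), or 0.88 after rescaling (adjusted p = 0.109). The authors' deposited table gives *Nfkbia* a log2 fold change of 0.41 with an FDR of 0.23.

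*Nfkb2* and *Relb* encode the subunits of the noncanonical branch, p100/p52 and RelB. For *Nfkb2* (chromosome 19, 46304320 to 46312385, plus strand), WT males had 4.28, 3.76 and 2.65 TPM, WT females 2.46, 2.99 and 3.90 TPM, KO males 13.3, 15.7 and 20.4 TPM, and KO females 13.1, 19.4 and 14.5 TPM. The genotypes were fully separated and the sexes were mixed within each. *Nfkb2* averaged 3.34 ± 0.742 TPM in WT and 16.1 ± 3.12 TPM in KO (SD, n = 6 each), a limma difference of 1.97 (SE 0.148, adjusted p = 2.25e-07), or 1.57 after rescaling (adjusted p = 5.35e-06). It overlaps *Psd* on the opposite strand, and *Icam1* overlaps *Gm47079*. Whether strand was used in counting is not given in the sources used here.

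For *Relb* (chromosome 7, 19606217 to 19629438, minus strand), WT males had 0.804, 1.87 and 0.704 TPM, WT females 1.00, 1.08 and 1.36 TPM, KO males 9.54, 7.51 and 7.70 TPM, and KO females 10.7, 9.50 and 7.61 TPM. Again the highest WT liver was well below the lowest KO liver. *Relb* averaged 1.14 ± 0.427 TPM in WT and 8.76 ± 1.34 TPM in KO (SD, n = 6 each), a limma difference of 2.20 (SE 0.144, adjusted p = 6.26e-08), or 1.86 after rescaling (adjusted p = 2.23e-06).

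The kappaB consensus, the 10-base motif to which NF-kB binds, was looked for on both strands in RefSeq promoter windows (GRCm38.p6) that run from 250 bases before to 50 bases after each annotated start. Windows were found for 9 of the 10 genes. The motif was present for 3 of the 9, *Nfkbia*, *Tnfaip3* and *Nfkb2*, and in 5 of the 12 windows of the 9 genes, 3 of them windows of *Nfkb2*, of which the last 2 overlap. Over all genes with a window, 5.14% held the motif in at least 1 window, and 4.51% of all 32851 windows held it. These are matches of letters, not measured binding. The sequences are shown because these promoters belong to the 2 inhibitors and to *Nfkb2*; each is given 5′ to 3′ on the gene's strand with the match in capitals. Matches can overlap one another, and in *Nfkb2* a match on the opposite strand begins 1 base after the first one shown. For *Nfkbia* the 150 bases directly before the start are shown, and for the others 30 bases around a match; not every match is shown.

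*Nfkbia* chr12:55492648-55492797, minus strand: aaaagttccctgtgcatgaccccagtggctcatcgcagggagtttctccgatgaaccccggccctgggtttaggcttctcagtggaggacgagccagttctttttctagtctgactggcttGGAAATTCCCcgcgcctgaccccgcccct
*Tnfaip3* chr10:19015516-19015545, minus strand: gactcacgcgGGGACACCCCggggcgggac
*Tnfaip3* chr10:19015403-19015432, minus strand: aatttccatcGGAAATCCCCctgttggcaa
*Nfkb2* chr19:46304688-46304717, plus strand: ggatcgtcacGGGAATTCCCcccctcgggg
*Nfkb2* chr19:46304716-46304745, plus strand: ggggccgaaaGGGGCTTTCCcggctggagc
*Nfkb2* chr19:46305695-46305724, plus strand: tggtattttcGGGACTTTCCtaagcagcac

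The single *Nfkbia* match lies 29 to 20 bases before the start. The 3 genes that hold a match include *Nfkbia*, which did not pass the test after rescaling. Among the 6 genes with a window and no match are *Tnfrsf12a* and *Icam1*, both of which rose. Whether a match bears on a difference was not tested, and sites outside these windows or unlike the consensus were not looked for.

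*Birc3* encodes cIAP2, a ubiquitin ligase that protects cells from TNF-induced death and degrades the kinase of the noncanonical branch (chromosome 9, 7848699 to 7873186, minus strand). Its levels were 4.35, 4.09 and 5.32 TPM in WT males, 6.01, 6.98 and 6.13 TPM in WT females, 11.2, 11.3 and 14.3 TPM in KO males, and 12.3, 11.4 and 8.89 TPM in KO females. All KO livers were above all WT livers, and within WT each female was above each male. The targeted gene *Yap1* lies close to *Birc3* on chromosome 9 (7931999 to 8004596, minus strand). Whether the altered locus bears on *Birc3* or on its ratio to other genes was not tested. *Birc3* averaged 5.48 ± 1.11 TPM in WT and 11.6 ± 1.77 TPM in KO (SD, n = 6 each), a limma difference of 0.96 (SE 0.137, adjusted p = 6.48e-05), or 0.55 after rescaling (adjusted p = 0.00103). In males it was 1.25 (limma adjusted p = 9.39e-05). In females it was 0.68 (adjusted p = 0.00706), a call that ended after rescaling (difference 0.36, adjusted p = 0.0656) and when WT female replicate 3 and KO female replicate 1, the early animals, were left out together (adjusted p = 0.0800).

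*Icam1* encodes an adhesion molecule by which leukocytes attach to endothelium and hepatocytes (chromosome 9, 21015985 to 21028817, plus strand). WT males had 5.79, 7.62 and 5.46 TPM, WT females 7.80, 5.95 and 5.94 TPM, KO males 31.6, 39.9 and 27.7 TPM, and KO females 35.0, 25.4 and 34.1 TPM. The WT livers lay close together and far below the KO livers, with the sexes mixed. The mean of *Icam1* was 6.43 ± 1.01 TPM in WT and 32.3 ± 5.23 TPM in KO (SD, n = 6 each), a limma difference of 2.16 (SE 0.131, adjusted p = 2.96e-08), or 1.73 after rescaling (adjusted p = 1.35e-06).

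**Figure D2:**
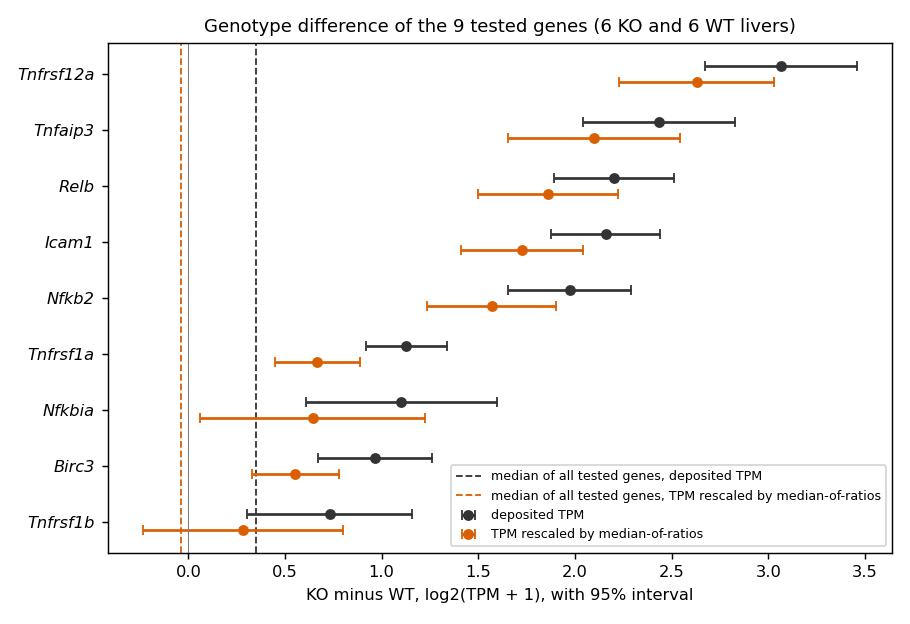
KO minus WT difference on the log2(TPM + 1) scale (horizontal axis) of the 9 tested genes over 6 KO and 6 WT livers, with 95% intervals, for deposited and rescaled TPM; dashed lines are the medians of all tested genes (0.35 and -0.04). *Tnfrsf12a* lies farthest right at 3.07, and the rescaled interval of *Tnfrsf1b* spans 0.

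The 9 differences fell into a higher set, from 1.97 (*Nfkb2*) to 3.07 (*Tnfrsf12a*), and a lower one, from 0.73 (*Tnfrsf1b*) to 1.13 (*Tnfrsf1a*). The higher set holds *Tnfrsf12a*, *Tnfaip3*, *Relb*, *Icam1* and *Nfkb2*. In the lower set are *Tnfrsf1a*, *Nfkbia*, *Birc3* and *Tnfrsf1b*. Because of the added 1, the change of low genes such as *Relb* and *Tnfaip3* comes out smaller than on the TPM scale. As ratios of mean TPM, the higher set ran from 4.81 (*Nfkb2*) to 9.50 (*Tnfaip3*) and the lower from 1.64 (*Tnfrsf1b*) to 2.30 (*Nfkbia*). The authors' deposited table lists log2 fold changes of 2.74 for *Tnfrsf12a*, 2.39 for *Relb*, 2.25 for *Tnfaip3*, 1.79 for *Icam1* and 1.54 for *Nfkb2*, and of 0.64 for *Tnfrsf1a* and 0.73 for *Birc3*.

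In males 8 of the 9 genes rose, all but *Tnfrsf1b*, against 43.3% of all tested genes. In females all 9 rose, against 29.1%. The differences in males and in females were 3.14 and 2.99 for *Tnfrsf12a*, 2.40 and 2.47 for *Tnfaip3*, and 2.15 and 2.25 for *Relb*. They were 2.22 and 2.10 for *Icam1* and 1.93 and 2.01 for *Nfkb2*, so that the 5 genes of the higher set stayed above the other 4 in each sex. After rescaling the counts were 7 in males, against 13.9%, and 6 in females, against 15.2%. In the test of the difference between the sexes in the genotype effect, 0 of the 9 genes passed with limma, against 0.912% of all tested genes, and 1 of the 9 had an unadjusted p under 0.05, as did 1087 of the 12278 tested genes. That gene was *Birc3*, whose effect was 0.57 larger in males (95% interval 0.06 to 1.07, limma adjusted p = 0.498). After rescaling it was 0.38 for *Birc3* (interval -0.04 to 0.79), and the 1 gene with an unadjusted p under 0.05 was *Tnfrsf1b*, at -0.95 (interval -1.83 to -0.06, limma adjusted p = 0.623). For *Tnfaip3* the interval of the difference between the sexes was -0.89 to 0.74, and for *Tnfrsf12a* -0.66 to 0.96, so these data do not show that the effects are alike.

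Between the sexes, *Tnfrsf1b* was the only one of the 9 genes past the threshold in WT, where 5.74% of all tested genes were. It was 0.97 higher in WT males than in WT females (limma adjusted p = 0.0419), and 1.20 higher after rescaling (adjusted p = 0.0379). This call ended when any of WT male replicate 1 (adjusted p = 0.131), WT male replicate 2 (0.118), WT female replicate 1 (0.135), WT female replicate 2 (0.136), WT female replicate 3 (0.0684) or KO male replicate 3 (0.0517) was left out of the limma fit. It also ended without the expression filter (limma adjusted p = 0.0762, and 0.0704 when rescaled) and with a term for the early animals (0.0926) or without both of them (0.0695). In KO livers 0 of the 9 genes differed between the sexes by limma, nor had any an unadjusted p under 0.05, against 0.0814% of all tested genes past the threshold.

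Some pairs of related genes did not change by the same factor between the genotypes. All pairs given here were chosen after their values were seen and are given as a description. The level of *Nfkb2* relative to *Nfkb1*, the subunit gene of the canonical branch, was 0.226 to 0.369 in WT livers and 0.754 to 1.18 in KO livers. For *Relb* relative to *Rela* it was 0.0250 to 0.0595 in WT and 0.110 to 0.221 in KO. *Tnfaip3* relative to *Nfkbia* was 0.0120 to 0.0394 in WT and 0.0618 to 0.162 in KO. None of these 3 ratios overlapped between the genotypes, and how often other pairs separate was not computed. In each pair the first gene had the larger KO minus WT difference: 1.97 against 0.63, 2.20 against 0.86 and 2.44 against 1.10.

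*Birc3* relative to its neighbour and relative *Birc2*, the gene of cIAP1, ranged from 0.485 to 0.687 in WT and from 0.769 to 0.939 in KO. *Tnfrsf1b* relative to *Tnfrsf1a* was 0.462 to 0.658 in WT males, 0.207 to 0.226 in WT females, 0.199 to 0.413 in KO males and 0.195 to 0.377 in KO females. WT males were thus above all other livers in the balance of the 2 TNF receptors. This ratio overlapped between the genotypes, and its median in females was 0.217 in WT and 0.198 in KO. Ratios within a library do not depend on its scaling.

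**Figure D3:**
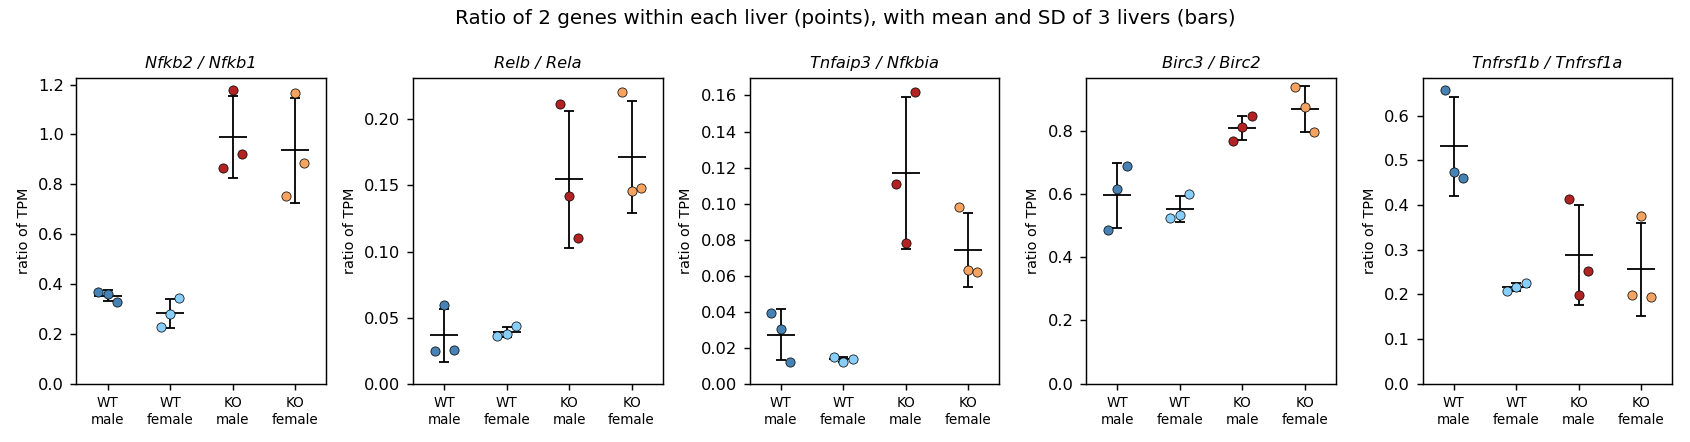
Ratio of the TPM of 2 genes within each liver (vertical axis, no unit), grouped by genotype and sex; points are livers, bars the mean and SD of 3 livers. For *Nfkb2* over *Nfkb1* the WT livers lie between 0.226 and 0.369 and the KO livers between 0.754 and 1.18, while *Tnfrsf1b* over *Tnfrsf1a* is highest in WT males.

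Beyond the 10 genes, 87 others of TNF and NF-kB signalling were listed by role, and 68 were tested. Of these, 49 rose and 2 fell, against 50.1% of all tested genes that rose and 4.82% that fell, with a median difference of 0.67. After rescaling 28 rose and 6 fell, against 20.9% and 18.7%, with a median of 0.26. *Tnfrsf10b* and *Tnfrsf11a* entered the test only through the KO livers and had to differ. Without them 47 rose, and 26 after rescaling. The lists, too, were chosen with earlier results of these data known. In males 45 of the 68 rose, against 43.3% of all tested genes, and in females 35 rose and 2 fell, against 29.1% and 4.68%. After rescaling 18 rose and 6 fell in males, where 13.9% of all tested genes rose and 10.2% fell, and 24 rose and 6 fell in females, where 15.2% rose and 10.9% fell. In the limma test of the difference between the sexes 0 of the 68 passed, against 0.912%, and 8 had an unadjusted p under 0.05, as did 1087 of the 12278 tested genes.

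In each role the counts that follow stand beside the 50.1% of all tested genes that rose, or 20.9% after rescaling, and lists of a few genes say little against them. Most ligands of the family were at low levels: 3 of 12 were tested and 2 rose, 1 of them also after rescaling. *Ltb*, lymphotoxin beta, rose from 1.16 ± 1.25 to 4.30 ± 1.59 TPM (SD, n = 6 each), a difference of 1.41, and *Tnfsf12*, which encodes TWEAK, the ligand of Fn14, from 16.4 ± 6.92 to 26.5 ± 3.58 TPM, a difference of 0.76. After rescaling *Tnfsf12* did not pass (0.32, limma adjusted p = 0.185). Of 11 further receptors 9 were tested and 5 rose, 3 of them after rescaling. Of these, *Tnfrsf10b* and *Tnfrsf11a* were under the filter in WT and entered the test only through the KO livers, so they had to differ; without them 3 rose, 1 of them after rescaling. *Tnfrsf10b*, the TRAIL receptor, was at 0.0769 to 0.356 TPM in WT and 1.91 to 4.69 TPM in KO (difference 1.79). *Tnfrsf21*, death receptor 6, rose by 1.09, or by 0.72 after rescaling, and *Tnfrsf11a*, the receptor RANK, by 1.04.

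Among 24 tested adaptors and kinases, 16 rose and 1 fell, and after rescaling 6 rose and 3 fell, shares near the 20.9% and 18.7% of all tested genes. *Mlkl*, the pore-forming effector of necroptosis, went from 3.76 ± 1.96 to 19.1 ± 3.32 TPM (SD, n = 6 each), a difference of 2.17. *Map3k14*, which encodes NIK, the kinase of the noncanonical branch, went from 1.02 ± 0.453 to 4.43 ± 1.29 TPM (difference 1.43). *Map3k8*, a kinase upstream of the MAP kinases, rose by 1.37. *Chuk*, which encodes IKK-alpha, fell by 0.32 (limma adjusted p = 0.0351), or by 0.77 after rescaling.

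All 7 tested NF-kB and IkB genes rose, beside 50.1% of all tested genes, and 4 of them after rescaling, beside 20.9%. The IkB genes *Nfkbie*, *Nfkbiz* and *Bcl3* rose by 1.57, 1.51 and 1.07, or by 1.24, 1.10 and 0.61 after rescaling. Another IkB gene, *Nfkbib*, rose by 0.63, but did not pass after rescaling (0.19, limma adjusted p = 0.289). Of the canonical subunits, *Rela* was at 29.9 ± 1.97 TPM in WT and 55.5 ± 9.79 TPM in KO (difference 0.86, rescaled 0.40), and *Nfkb1* at 10.5 ± 1.27 and 16.8 ± 2.93 TPM (difference 0.63). After rescaling *Nfkb1* did not pass (0.19, limma adjusted p = 0.203).

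Of the feedback inhibitors 10 were tested, 6 rose and none fell, beside 50.1% and 4.82% of all tested genes. After rescaling 4 rose and 2 fell, beside 20.9% and 18.7%. The 2 that fell were *Otulin* (-0.56, limma adjusted p = 0.000513) and *Itch* (-0.49, limma adjusted p = 0.000585). *Tax1bp1* rose by 0.53 but did not pass after rescaling (0.07, limma adjusted p = 0.687). *Tnip1* and *Tnip2* encode partners of A20, and *Rnf11* another protein of the A20 complex. *Tnip1* went from 4.85 ± 1.17 to 24.6 ± 3.05 TPM (SD, n = 6 each), a difference of 2.14, and *Rnf11* and *Tnip2* rose by 1.16 and 1.15, or by 0.70 and 0.76 after rescaling.

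Other known targets of NF-kB gave 13 that rose and 1 that fell among 15 tested, and 10 and 1 after rescaling, beside 50.1% and 4.82% of all tested genes, and 20.9% and 18.7% after rescaling. *Ier3*, an immediate early gene, went from 1.62 ± 1.15 to 22.0 ± 7.95 TPM (SD, n = 6 each), a difference of 3.16. *Bcl2a1b*, a survival gene of the Bcl2 family, rose by 2.87, but it has near-identical copies whose reads may be shared. *Cxcl1*, a neutrophil chemokine, rose by 2.85 with overlapping genotypes (4.40 to 114 TPM in WT, 33.2 to 312 TPM in KO). *Sod2*, the mitochondrial superoxide dismutase, went the other way and fell by 0.31 (limma adjusted p = 0.0131), or by 0.76 after rescaling.

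**Figure D4:**
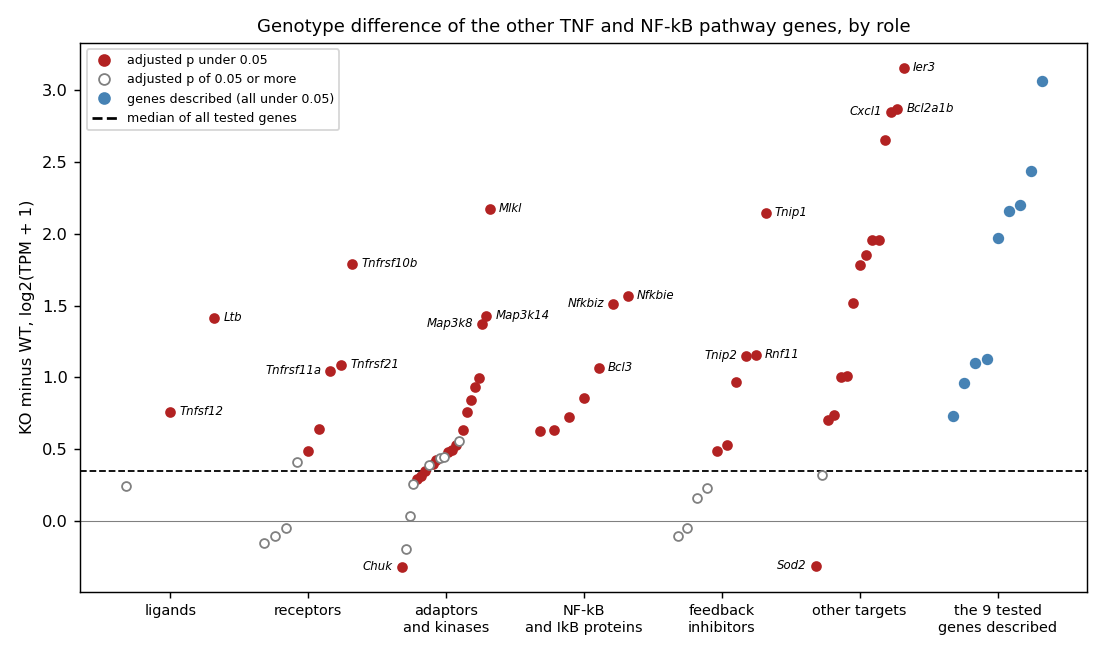
KO minus WT difference on the log2(TPM + 1) scale (vertical axis) of the 68 tested pathway genes by role, and of the 9 tested genes described above; filled points passed limma at an adjusted p of 0.05 and the dashed line is the median of all tested genes, 0.35. Most filled points lie above the line, and *Chuk* and *Sod2* are the 2 that fell.

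Genes of like pattern were searched for *Tnfrsf12a* and *Tnfaip3*, which had the largest differences of the 9 on the log2(TPM + 1) scale. Likeness was the root mean square difference of log2(TPM + 1) over the 12 livers after each gene was centred. The nearest to *Tnfrsf12a*, whose own root mean square around its mean was 1.56, were *Mmp12* (0.274), *Cystm1* (0.276) and *Prr15l* (0.308). With WT means of 0.0737 and 0.321 TPM, *Mmp12* and *Prr15l* passed the filter only through the KO livers and had to differ. For *Tnfaip3*, at 1.27, they were *Nedd9* (0.253), *Rgs1* (0.290) and *Krt18* (0.297).

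Markers of other cell types moved with genotype beside these genes, and the counts of markers that rose stand beside 50.1% of all tested genes, or 20.9% after rescaling. The counts that fell stand beside 4.82%, or 18.7%. The summed TPM of 10 macrophage markers was 73.3 to 76.4 in WT males, 114 to 237 in WT females, 356 to 606 in KO males and 421 to 739 in KO females. On the log2 scale that sum was 2.20 higher in KO (exact permutation test within sex, p = 0.0125 adjusted over 10 lists), or 1.74 after rescaling, and 10 of the 10 markers rose, 9 of them after rescaling. One of the 10, *Ccr2*, at 0.145 to 0.580 TPM in WT, entered the test only through the KO livers and had to differ; of the other 9 markers 9 rose, 8 of them after rescaling. Among them *Adgre1*, which encodes F4/80, rose by 2.01 and *Clec4f*, a Kupffer cell gene, by 1.61. *Icam1*, *Tnfrsf1b*, *Tnfaip3* and *Relb* are also expressed by macrophages.

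The stellate or fibroblast sum of 7 markers went from 60.4 to 169 TPM in WT to 151 to 375 TPM in KO (difference 1.50, adjusted exact permutation p = 0.0125). Of these 7 genes 5 rose, led by the collagens *Col1a1* (4.01) and *Col3a1* (2.86), and after rescaling 3 rose and 1 fell, *Lrat*, a stellate cell gene (-0.91). The cholangiocyte sum was 27.7 to 58.5 TPM in WT and 252 to 713 TPM in KO (3.57, adjusted exact permutation p = 0.0125). Of its 4 tested genes *Spp1* and *Sox9* rose, by 3.76 and 1.57, *Epcam* fell by 0.35 and *Krt19* differed by -0.12 (limma adjusted p = 0.707), while *Cftr* was under 0.5 TPM in every library. After rescaling *Spp1*, *Sox9*, *Epcam* and *Krt19* were at 3.31, 1.17, -0.53 and -0.36. The median difference of the 4 before rescaling was 0.72, so the sum is not a rise of its markers as a set. The hepatocyte sum fell by 0.39 (adjusted exact permutation p = 0.0125), with 2 of its 6 genes lower, *Ttr* and *Serpina1c*, and 1 higher, *Hnf4a*. After rescaling 3 were lower, *Alb* among them, none was higher, and *Hnf4a* turned to -0.13 (limma adjusted p = 0.436). Neutrophil markers summed to 0.294 to 21.7 TPM in WT and 12.9 to 46.9 TPM in KO (1.67, adjusted exact permutation p = 0.0700), 3 of 5 tested genes rose and 1 of them after rescaling, shares near those of all tested genes, and *Ly6g* was under 0.5 TPM throughout. The T cell, B cell, natural killer cell, endothelial and red cell sums did not pass the test (adjusted exact permutation p of 0.506, 0.117, 0.794, 0.885 and 0.506), and *Trac* was listed at 0 in every library. The part of these cell types in the results for the 10 genes was not tested.

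**Figure D5:**
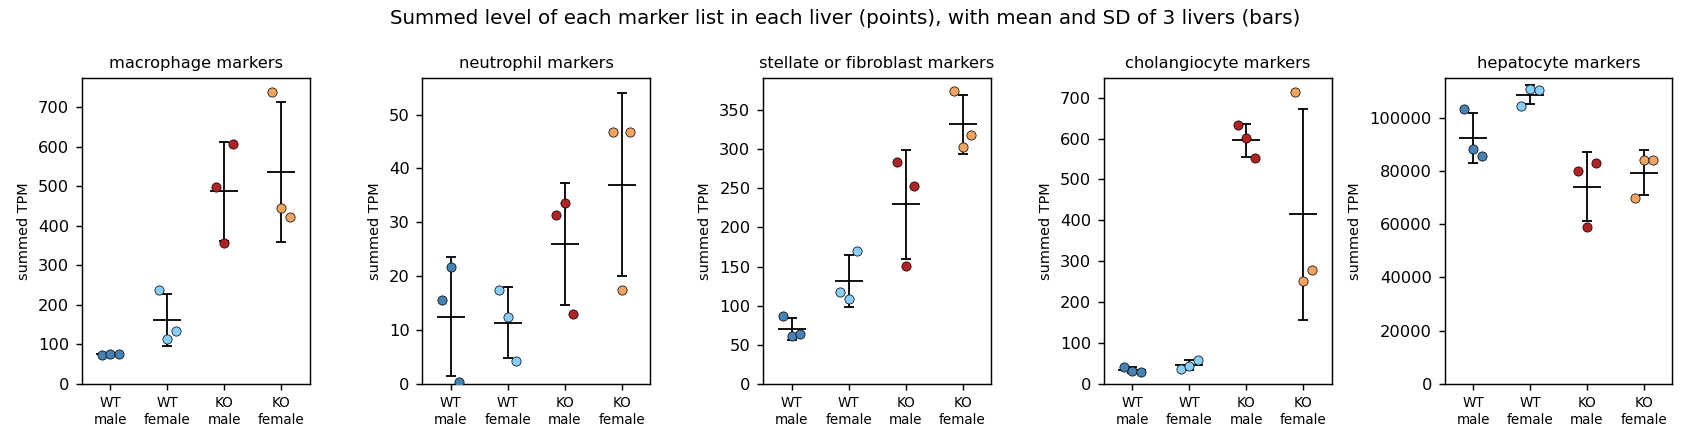
Summed TPM of 5 lists of cell type markers (vertical axis from 0, own scale per panel) in each liver, grouped by genotype and sex; points are livers, bars the mean and SD of 3 livers. The macrophage, stellate or fibroblast and cholangiocyte sums are higher in KO livers, the neutrophil sums overlap, and the hepatocyte sums are lower in KO. Within the cholangiocyte list *Epcam* was lower in KO and *Krt19* did not pass the test.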

How the data were processed

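Frozen livers of 12 mice were sequenced as total RNA, and the deposited table holds 1 column of TPM per mouse and the authors' fold changes (log2) with FDR p-values, per the file headers. The submitters' processing notes name edgeR and the GRCm38 build. The aligner, the counter, the annotation and the use of strand are not given in the sources used here. Groups were taken from the sample titles, and the replicate numbers follow only the deposition order and pair no samples. All per-sample columns matched a sample (0 left over).

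The 10 genes and all lists were chosen with earlier results of these data known. TPM were transformed as log2(TPM + 1), and the 12278 genes with a mean of at least 0.5 TPM were tested with limma 3.58.1 in R 4.3.3 (eBayes with trend), two-sided, with Benjamini-Hochberg adjustment and a threshold of 0.05. The genotype fit used all 12 livers with sex as a covariate. The contrasts within a sex, between the sexes and of their difference came from 1 model of the 4 group means. The limma p-values set each mean difference against the spread between these mice, with the estimate of that spread partly shared over genes. *Yap1* and the marker sums were tested by exact permutation of genotype within sex (400 arrangements, two-sided). The fits were tested on simulated data.

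Whole reads were recovered from TPM steps for 15088 of 15163 genes tried (99.5%, within 0.02 of a whole number) and describe depth only. They cover 50.9% to 62.2% of each library's TPM. A count of 0 was taken to allow up to 3 reads. Positions are from GENCODE M21 on GRCm38, and promoters from RefSeq.

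In each of 6 role lists the text names the 3 genes past the threshold with the largest absolute difference and any that fell. *Rela*, *Nfkb1*, *Nfkbib*, *Otulin*, *Itch* and *Tax1bp1* were named after their values were seen, and so were the single genes of the marker lists. Alternatives were rescaling by median-of-ratios or without the 20 most abundant genes, a pseudocount of 0.1, no filter, no trend, a term for the early animals and leaving out each liver. Fits without both early animals, and rescaled without a filter, were added after seeing the data.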

Additional observations from a re-analysis of the deposited data

Results flagged for a closer look

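*Tnfrsf1a*, the TNFR1 gene, had 1 liver apart from the others among the 6 KO livers. KO male replicate 2 stood at 146 TPM, and its gap to the next liver, at 128 TPM, was 0.649 of the range of the 6, above Dixon's 95% critical value of 0.625. The difference of *Tnfrsf1a* without any single liver was 1.07 to 1.17. In all 22 groups of 6 were checked in this way, and chance alone flags about 1 group in 20.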

How the results depend on the processing

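Of 866 recomputed values, 811 kept their direction and their side of the threshold, or stayed within 1.5 times of a count. The 9 tested genes all rose in each of the 12 fits without 1 liver and in all other alternatives except the 2 with median-of-ratios rescaling, where 7 did. Without any 1 liver, 49 to 52 of the pathway genes passed (51 with all), and 34 after that rescaling. No paired analysis was possible because replicate numbers follow the order of deposition.

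Rescaling by median-of-ratios took the genes called in males from 5663 (43.3% of tested genes higher, 2.81% lower) to 2959 (13.9% and 10.2%), or 2937 without a filter. It turned *Tnfrsf1b* in males to -0.19, with and without a filter, and the T cell, natural killer cell, endothelial and red cell sums to -0.18, -0.20, -0.43 and -0.19. The sex comparison in WT called 705 genes, 409 with a term for the early animals, 458 without those 2, 463 when rescaled with no filter, and 290 to 1696 without 1 liver (the lowest without WT male replicate 2, the highest without WT male replicate 3). In KO it called 10, 6 when rescaled with no filter and 6 to 10 without 1 liver. The sex difference of the genotype effect called 112 genes and 75 to 176 without 1 liver. Without 1 liver the neutrophil sum ranged from 1.02 to 2.05 (adjusted exact permutation p = 0.0400 without WT male replicate 2), the B cell sum from 0.30 to 0.56 (p = 0.0100 without WT female replicate 1), the natural killer cell sum from -0.08 to 0.26 and the endothelial sum from -0.15 to 0.22. The endothelial sum turned to -0.03 without WT female replicate 3, -0.13 without KO male replicate 3 and -0.15 without KO female replicate 1, and the natural killer cell sum to -0.0809 without WT male replicate 3. The cause was not tested in any of these.

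*Tnf* rests on at most 20 recovered reads in a library, and TPM cannot show a change in total RNA.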

Other observations

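The 5 genes of TNF-induced cell death given here, chosen after their values were seen, did not move evenly. Others of the adaptor list, such as *Fadd* and *Tradd*, are not among them. *Ripk3*, the kinase that activates the product of *Mlkl*, was at 0.569 ± 0.209 TPM in WT and 1.74 ± 0.928 TPM in KO (SD, n = 6 each), a limma difference of 0.76 (adjusted p = 0.00227) and 0.54 after rescaling (adjusted p = 0.0158). *Ripk1*, the kinase recruited to TNFR1, differed by 0.64 (limma adjusted p = 0.000472) and by 0.21 after rescaling (adjusted p = 0.185). *Casp8*, the initiator caspase, was at 10.6 to 15.4 TPM in WT and 13.1 to 19.9 TPM in KO, a difference of 0.26 that did not pass (limma adjusted p = 0.133). *Cflar*, which encodes the caspase inhibitor FLIP, differed by -0.19 (limma adjusted p = 0.260), and by -0.64 after rescaling, which passed (adjusted p = 0.000689). *Mlkl* at 2.17 thus had the largest difference of these 5 genes.

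Of other NF-kB targets, again named after their values were seen, *Vcam1*, an adhesion molecule like *Icam1*, was at 1.59 to 4.86 TPM in WT and 7.24 to 13.7 TPM in KO, a limma difference of 1.78 (adjusted p = 5.37e-07). *Ccl2*, the monocyte chemokine, was at 0 to 1.91 TPM in WT and 6.63 to 15.4 TPM in KO (difference 2.65, limma adjusted p = 5.73e-06). *Cxcl10* rose by 1.01 (limma adjusted p = 0.00953), a call that ended after rescaling (0.63, adjusted p = 0.114). *Selp*, an adhesion molecule of platelets and endothelium, differed by 0.32 (limma adjusted p = 0.145). *Il6* and *Sele* were below the filter, at no more than 0.701 and 0.552 TPM in any liver.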
